A study of Mus musculus with 4 samples.

Results

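AMPA and NMDA receptor subunit genes were followed in RNA sequencing of sorted *Sst* interneurons. The 10 genes were taken by name, 4 AMPA receptor genes (*Gria1*, *Gria2*, *Gria3* and *Gria4*) and 6 NMDA receptor genes (*Grin1*, *Grin2a*, *Grin2b*, *Grin2c*, *Grin2d* and *Grin3a*), out of 56883 genes in the table. Control cells came from *Sst-Cre/tdTomato* embryos, and *Dnmt1* KO cells from *Sst-Cre/tdTomato/Dnmt1 loxP2* embryos. Both carried Cre driven by the *Sst* gene and a Cre-dependent tdTomato reporter, and the *Dnmt1* KO embryos carried in addition loxP-flanked *Dnmt1*, which encodes a DNA methyltransferase. Deletion is thus limited to cells that have switched on *Sst*, a gene of postmitotic interneurons. Cells positive for tdTomato were sorted from the E14.5 basal telencephalon, with 2 libraries per genotype, each made from cells pooled from several embryos. The question was which glutamate receptor genes differ between migrating interneurons with and without *Dnmt1*.

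Ionotropic glutamate receptors are tetrameric cation channels opened by glutamate. AMPA receptors carry fast excitatory currents, and inclusion of the *Gria2* product, when edited at its RNA, lowers their calcium permeability. NMDA receptors need the *Grin1* product together with Grin2 or Grin3 products, require a co-agonist and are blocked by magnesium at rest, and *Grin2b* is known as the main Grin2 gene of the embryonic forebrain. Immature interneurons express both receptor types while they migrate, before most synapses form.

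Recovered reads per library lay between 6970247 and 8376711. Markers were called higher or lower by limma at an adjusted p below 0.05, as were 8.3% and 8.99% of all genes tested. Of the interneuron identity markers, 15 of 17 were called higher in *Dnmt1* KO cells and none of the 17 was at 0. Their summed normalized counts were 28740 to 28860 in control and 44030 to 44460 in *Dnmt1* KO libraries. *Sst* itself had normalized counts of 5580 and 5963 in the control and 8303 and 7825 in the *Dnmt1* KO libraries. *Dnmt1* was counted at 2238 and 2341 in control and at 2164 and 2210 in *Dnmt1* KO libraries, and since counts are summed over the whole gene, this level does not check the deletion of the floxed exons. Markers of other cells were lower in *Dnmt1* KO libraries. For radial glia and cycling cells 12 of 14 genes were called lower and 1 higher. Their sums were 15728 to 15767 in control and 9964 to 10216 in *Dnmt1* KO libraries. In the excitatory lineage 7 of 9 were called lower and none of the 9 had a positive log2 fold change, with sums of 3081 to 3116 and 1534 to 1671. Of the 15 markers of blood, vascular, microglial and oligodendrocyte lineage cells, 14 were tested and 10 were called lower. None of the 14 had a positive log2 fold change, and the sums were 2417 to 2616 and 739 to 740. Pan-neuronal markers were closer, with 4 of 14 called higher and 3 called lower and sums of 50266 to 50849 and 54600 to 54615. No marker of these lists was at 0 in all 4 libraries. These marker levels moved with genotype alongside every result below, and their part in the receptor results was not tested. In such pooled cells, a change in the number of cells that express a gene and a change in its RNA per cell cannot be told apart.

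DNMT1 acts on CG dinucleotides, and the promoters of members are therefore shown for their CG content. DNA methylation of these cells was not analysed here. RefSeq promoter windows on GRCm38.p6 were matched for 5 of the 10 members, *Gria2*, *Gria4*, *Grin1*, *Grin2c* and *Grin2d*, and those of 2 AMPA receptor genes and of *Grin1* follow, 250 bases that end at the base before the transcription start, 5′ to 3′ on the gene's strand, with each CG in capitals.
Gria2: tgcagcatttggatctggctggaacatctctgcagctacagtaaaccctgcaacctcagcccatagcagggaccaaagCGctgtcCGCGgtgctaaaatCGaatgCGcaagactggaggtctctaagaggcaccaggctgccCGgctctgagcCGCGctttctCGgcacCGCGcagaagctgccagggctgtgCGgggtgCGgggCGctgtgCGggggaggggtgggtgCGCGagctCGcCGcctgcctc
Gria4: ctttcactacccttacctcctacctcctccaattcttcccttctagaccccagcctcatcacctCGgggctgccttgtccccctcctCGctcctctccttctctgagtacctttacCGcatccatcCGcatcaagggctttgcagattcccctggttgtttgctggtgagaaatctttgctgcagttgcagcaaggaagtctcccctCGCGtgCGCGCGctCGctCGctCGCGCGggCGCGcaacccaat
Grin1: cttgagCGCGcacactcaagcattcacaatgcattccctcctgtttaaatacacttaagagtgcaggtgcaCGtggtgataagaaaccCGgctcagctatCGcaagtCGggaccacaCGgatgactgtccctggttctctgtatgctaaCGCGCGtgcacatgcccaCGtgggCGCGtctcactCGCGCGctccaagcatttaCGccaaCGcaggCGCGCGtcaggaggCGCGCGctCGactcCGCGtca
These windows lie at chr3:80802836-80803085, chr9:4796235-4796484 and chr2:25319188-25319437, all on the minus strand. The *Gria2* window held 19 CG, and 19.7% of the 32851 mouse windows of this length held at least as many. The *Gria4* window held 16 (25.4% of windows). In the *Grin1* window there were 27 (8.56%), against a median of 6 over all windows. *Grin2c* and *Grin2d* had 15 (27.3%) and 9 (40.3%). Among the 3 genes shown, *Gria2* and *Gria4* were called higher in *Dnmt1* KO cells by limma, and *Grin1* did not pass. With dependence on transcript length and GC content subtracted, *Gria2* lost its call and *Grin1* passed (limma adjusted p = 0.102 and 0.0296). A link between CG content and expression was not tested.

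Of the 10 receptor genes, 6 were higher in *Dnmt1* KO cells and 0 lower with limma at an adjusted p below 0.05, where 8.3% of all 14323 genes tested were higher and 8.99% lower. The 6 were all 4 AMPA receptor genes and the NMDA receptor genes *Grin2b* and *Grin3a*. Their fold changes ran from 1.41 for *Gria2* to 1.90 for *Gria1*. *Grin1*, *Grin2a* and *Grin2d* did not pass, and *Grin2c* was below the mean of 10 normalized counts required for testing. No member had an unadjusted p below 0.05 in the direction of lower expression, and edgeR and DESeq2 also called 0 lower. DESeq2 called the 6 genes higher as well, where it called 4.47% of all genes higher. In 7 of the 10 genes, the 6 and *Grin1*, both *Dnmt1* KO libraries exceeded both control libraries, as did 28.4% of all genes tested. The median log2 fold change was 0.79 over the 4 AMPA receptor genes and 0.43 over the 5 NMDA receptor genes tested, beside -0.0033 over all genes tested.

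**Figure D1:**
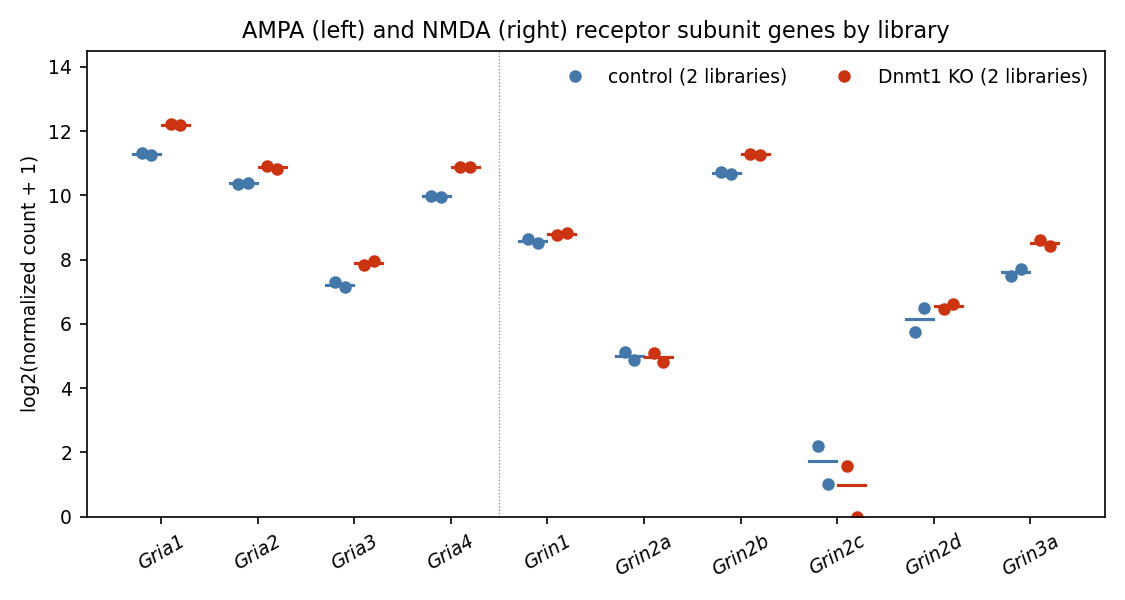
Log2(normalized count + 1) of each subunit gene (x axis) in each library, with 2 control (blue) and 2 *Dnmt1* KO (red) points and a bar at each mean. *Gria1* to *Gria4*, *Grin2b*, *Grin3a* and, by the smallest margin, *Grin1* have both red points above both blue ones, and the points of *Grin2a*, *Grin2c* and *Grin2d* overlap.

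*Gria1*, on chromosome 11 from 56902153 to 57221080 (GRCm39), encodes the AMPA receptor subunit best known for insertion into synapses during plasticity. It had 2545 and 2427 normalized counts in control and 4765 and 4662 in *Dnmt1* KO libraries. Both *Dnmt1* KO libraries were far above both controls, and the 2 libraries of a genotype lay close together. The log2 fold change was 0.92 (standard error, SE, 0.049, 95% interval 0.82 to 1.03), and limma gave a Benjamini-Hochberg adjusted p of 1.82e-08. Only 386 of the 14323 genes tested had a larger positive fold change.

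*Gria4*, on chromosome 9 from 4417604 to 4796326, codes for an AMPA receptor subunit with fast kinetics that is typical of interneurons. Control libraries had 1017 and 987 normalized counts and *Dnmt1* KO libraries 1900 and 1891. The libraries did not overlap, and the spread within each genotype was a small part of the difference. Its log2 fold change of 0.92 (SE 0.061, 95% interval 0.79 to 1.05, limma adjusted p = 1.1e-07) was nearly the same as that of *Gria1*.

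*Gria3*, on chromosome X from 40489476 to 40767490, is the least abundant AMPA receptor gene of these cells per kb of transcript. It was counted at 157 and 140 in control and 228 and 246 in *Dnmt1* KO libraries. The genotypes did not overlap here either. The log2 fold change was 0.67 with an SE of 0.13 and a 95% interval of 0.38 to 0.96 (limma adjusted p = 0.00281).

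*Gria2*, on chromosome 3 from 80588757 to 80710538, encodes the subunit that sets calcium permeability. Its normalized counts were 1317 and 1339 in control and 1949 and 1807 in *Dnmt1* KO libraries. Although both *Dnmt1* KO libraries were above both controls, the log2 fold change of 0.50 (SE 0.062, 95% interval 0.37 to 0.63, limma adjusted p = 4.99e-05) was the smallest of the AMPA receptor genes. *Gria2* was also the one member whose call was lost when dependence on transcript length and GC content was fitted in every library and subtracted, which left 0.15 on the log2 scale (limma adjusted p = 0.102). Over 17 alternatives its adjusted p ranged from 3.51e-11 to 0.102 (limma, edgeR and DESeq2). Its annotated transcript is 10726 bases long with 37.6% GC. With coding length (2766 bases) in place of transcript length, the value was 0.39 (limma adjusted p = 4.53e-05).

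*Grin2b*, on chromosome 6 from 135690231 to 136150548, had 1704 and 1627 normalized counts in control and 2513 and 2456 in *Dnmt1* KO libraries. Both *Dnmt1* KO libraries were above both controls by many times the spread within a genotype. It was the most abundant Grin2 gene per kb, and its log2 fold change was 0.58 (SE 0.056, 95% interval 0.46 to 0.70, limma adjusted p = 4.76e-06).

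*Grin3a*, on chromosome 4 from 49661611 to 49845847, encodes a glycine-binding subunit that lowers calcium permeability and magnesium block of NMDA receptors and is known from developing brain. Control libraries had 180 and 209 normalized counts, and *Dnmt1* KO libraries had 393 and 340. Relative to their level, the 2 *Dnmt1* KO libraries differed more than those of *Gria1* or *Gria4* did, yet both lay well above the controls. Its log2 fold change of 0.91 (SE 0.12, 95% interval 0.65 to 1.17, limma adjusted p = 0.000114) was the largest among the NMDA receptor genes. *Ppp3r2*, which lies inside *Grin3a* on the same strand, had at most 5.46 normalized counts in any library.

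*Grin1*, the obligatory NMDA receptor subunit gene, lies on chromosome 2 from 25181186 to 25209226. It was counted at 395 and 366 in control and 434 and 458 in *Dnmt1* KO libraries. Both *Dnmt1* KO libraries exceeded both controls, but the gap (395 to 434) was of the same order as that between the control libraries (366 to 395), though wider. The log2 fold change of 0.23 (SE 0.095, 95% interval 0.026 to 0.43) missed the threshold (limma adjusted p = 0.117). With length and GC dependence subtracted it was 0.32 and passed (limma adjusted p = 0.0296). The same subtraction moved the median log2 fold change of all genes tested from -0.0033 to 0.042. Over 17 alternatives the adjusted p of *Grin1* ranged from 0.0296 to 0.416 (limma, edgeR and DESeq2). *Grin1os* and *Lrrc26*, which overlap *Grin1* on the opposite strand, had at most 2.19 normalized counts.

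The remaining Grin2 genes were low. *Grin2a* (chromosome 16, from 9385762 to 9813424), which becomes prominent after birth, had 34.0 and 28.6 normalized counts in control and 33.5 and 27.3 in *Dnmt1* KO libraries. These values overlap, from 25 to 38 reads per library, and its log2 fold change was -0.041 with a 95% interval of -0.71 to 0.63 (limma adjusted p = 0.951), so a change of the size seen for *Grin2b* would lie inside the interval. *Grin2d* (chromosome 7, from 45481304 to 45527802), expressed in embryonic brain and in interneurons, had 52.8 and 88.8 in control and 86.8 and 98.3 in *Dnmt1* KO libraries. Control replicate 1 alone was low, and the other control library exceeded a *Dnmt1* KO library. The log2 fold change was 0.43 with a 95% interval of -0.082 to 0.93 (limma adjusted p = 0.25). Without control replicate 1 it was 0.056. *Grin2d* overlaps *Kdelr1* on the opposite strand, which had 113 to 165 normalized counts, and whether counting used strand is not given in the sources used here. *Grin2c* (chromosome 11, from 115139992 to 115158525), a gene of the adult cerebellum, had 4 and 1 reads in control and 2 and 0 in *Dnmt1* KO libraries. A count of 0 allows up to 3 reads, and no difference was detectable at this depth.

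**Figure D2:**
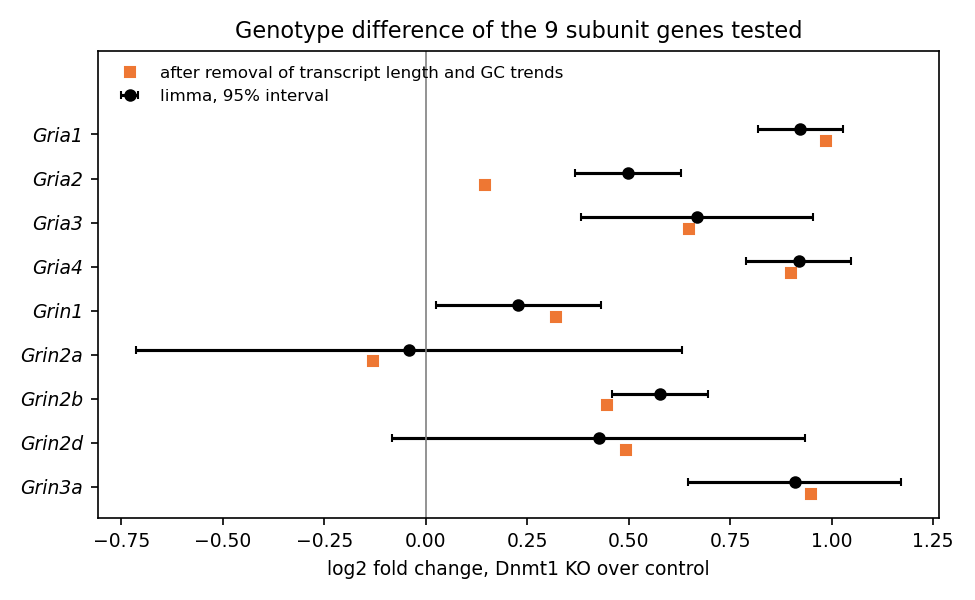
Log2 fold change, *Dnmt1* KO over control, of the 9 genes tested (black, with the 95% interval from limma), and the value after removal of transcript length and GC trends (orange). *Gria1*, *Gria4* and *Grin3a* lie between 0.90 and 0.99 both ways, *Gria2* moves from 0.50 to 0.15, and the intervals of *Grin2a* and *Grin2d* cross 0.

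Across the 14285 genes tested with an annotated length, fold changes rose with transcript length. In each of the 4 pairs of libraries of unlike genotype, the difference grew by 0.054 to 0.056 on the log2 scale per doubling of length, and between libraries of one genotype by 0.00064 to 0.0017. Member transcripts run from 4381 bases for *Grin1* to 24238 for *Grin2b* among the genes tested. After removal of this trend and that of GC content, 6 members were called higher, where 10.4% of genes were, with *Grin1* in place of *Gria2*. Removal also moved the median log2 fold change of all genes from -0.0033 to 0.042, and 1485 genes were higher and 1102 lower. *Gria1*, *Gria3*, *Gria4*, *Grin2b* and *Grin3a* had values of 0.99, 0.65, 0.90, 0.45 and 0.95.

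**Figure D3:**
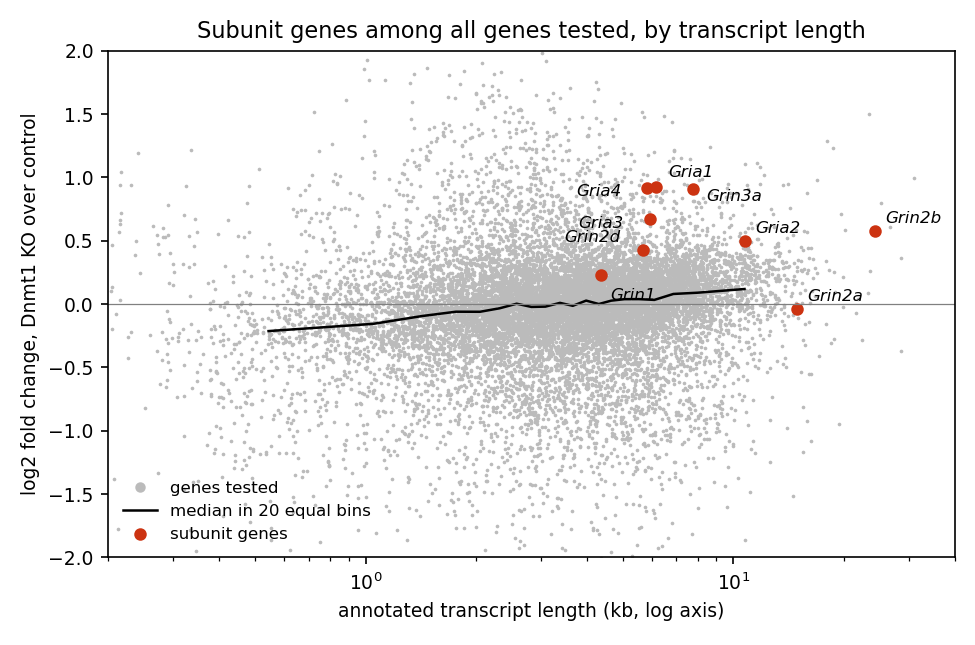
Log2 fold change of genes tested (grey) against annotated transcript length on a log axis, with the median in 20 bins of equal gene number (black) and the 9 subunit genes tested (red). The median climbs slowly with length, and the subunit genes other than *Grin2a* lie above it, while 162 genes fall outside the window drawn.

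Per kb of annotated transcript, the order of levels in control cells was *Gria1* (404 normalized counts per kb), *Gria4* (172), *Gria2* (124), *Grin1* (86.9), *Grin2b* (68.7), *Gria3* (25.1), *Grin3a* (25.0), *Grin2d* (12.4), *Grin2a* (2.11) and *Grin2c* (0.463). *Gria3* and *Grin3a* did not differ beyond the spread of their libraries, from 23.6 to 26.6 and from 23.1 to 26.9. These levels rest on 1 annotated transcript per gene, the one with the longest coding sequence, and the order depends on the length used. Per kb of coding length it began with *Gria1* (874), *Gria2* (480), *Grin2b* (375), *Gria4* (370) and *Grin1* (132), so that *Gria2* passed *Gria4* and *Grin2b* passed *Grin1*.

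The ratio of *Grin2b* to *Grin1* per kb was 0.78 and 0.80 in control and 1.05 and 0.97 in *Dnmt1* KO libraries. Per kb of the longest annotated transcript it was 0.98 and 1.01 against 1.31 and 1.22, and per kb of coding length 2.79 and 2.87 against 3.75 and 3.47. The ratio was higher in both *Dnmt1* KO libraries. A gene's length is the same in every library, so the choice of length cannot alter this comparison between genotypes. Which of the 2 genes had the higher level cannot be told, as it depends on the length used. With length and GC trends subtracted, the log2 fold changes of *Grin2b* (0.45, SE 0.055) and *Grin1* (0.32, SE 0.095) lay closer together than before (0.58 and 0.23). The rise of the ratio was thus smaller with these trends subtracted, and whether any of it remained was not tested.

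Summed over the 4 AMPA receptor genes, the level per kb was 738 and 712 in control and 1321 and 1292 in *Dnmt1* KO libraries. The NMDA receptor sum was 196 and 195 against 271 and 269. Their ratio stood at 3.77 and 3.65 in control and at 4.87 and 4.81 in *Dnmt1* KO libraries, without overlap, and per kb of coding length at 3.04 and 3.01 against 3.68 and 3.67. For each sum and ratio an exact two-sided permutation test gave p = 0.333, the smallest that 2 against 2 libraries allow, so none can reach 0.05.

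*Gria2* took a smaller part of the AMPA receptor transcripts in both *Dnmt1* KO libraries. It formed 16.6% and 17.5% of the summed AMPA receptor level per kb in control libraries and 13.8% and 13.0% in *Dnmt1* KO libraries. The mean share was 17.1% ± 0.62 in control and 13.4% ± 0.51 in *Dnmt1* KO libraries, a difference of -3.69 percentage points (SD, n = 2 each, exact two-sided permutation p = 0.333, the smallest possible). *Gria1* made up 56.1% and 55.4% in control and 58.6% in both *Dnmt1* KO libraries, *Gria4* 23.7% and 23.8% against 24.7% and 25.1%, and *Gria3* 3.61% and 3.32% against 2.91% and 3.21%. None of the 4 shares overlapped between genotypes, although that of *Gria3* did with coding length. With coding length, the *Gria2* share was 26.4% and 27.6% in control and 22.2% and 21.2% in *Dnmt1* KO libraries. Set against *Gria2*, *Gria1* was 3.37 and 3.16 times as abundant per kb in control and 4.26 and 4.50 times in *Dnmt1* KO libraries, and *Gria4* 1.42 and 1.36 times against 1.79 and 1.93 times. Per kb of coding length, *Gria4* was 0.79 and 0.75 times as abundant as *Gria2* in control and 1.00 and 1.07 times in *Dnmt1* KO libraries.

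*Grin2b* made up 85.1% and 79.1% of the Grin2 level in control and 85.3% and 84.1% in *Dnmt1* KO libraries. These shares per kb of transcript overlap. The difference of means, 2.59 percentage points, is smaller than the spread of the controls (SD 4.26, exact two-sided permutation p = 0.667). *Grin2d* supplied most of the rest, with 11.2% and 18.4% in control and 12.5% and 14.3% in *Dnmt1* KO libraries. The share of *Grin2a* was 2.77% and 2.27% in control and 1.86% and 1.53% in *Dnmt1* KO libraries, which do not overlap, while its own normalized counts do.

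**Figure D4:**
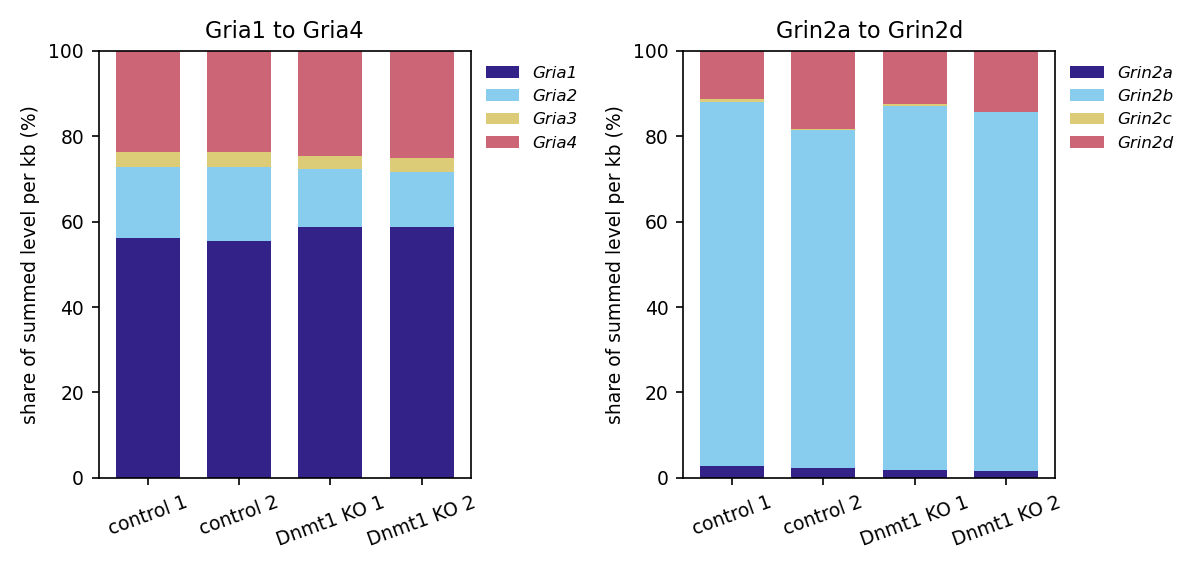
Share (%) of each subunit gene in the summed level per kb, for *Gria1* to *Gria4* (left) and *Grin2a* to *Grin2d* (right), stacked per library from 0 to 100. The *Gria2* band is thinner in both *Dnmt1* KO libraries (13.8% and 13.0%) than in both controls (16.6% and 17.5%), while *Grin2b* dominates the right panel in all 4 libraries.

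Genes that assemble, anchor or supply these receptors were examined in 5 lists of 89 genes, of which 81 were tested, 25 were higher and 4 lower by limma, with a median log2 fold change of 0.099. Over all genes tested, 8.3% were higher and 8.99% lower. DESeq2 called 18 of these genes higher and 3 lower, where it called 4.47% of all genes higher. Among 16 other glutamate receptor genes, 8 of the 14 tested were higher and 0 lower, with a median of 0.48. No gene of this list had an unadjusted p below 0.05 for lower expression, and edgeR called 8 and DESeq2 5, all higher. *Grm5*, a metabotropic receptor coupled to calcium release, went from 499 and 512 to 969 and 1041 normalized counts (log2 fold change 0.99, SE 0.078, limma adjusted p = 6.02e-07). The kainate receptor genes *Grik3* and *Grik1* changed by 0.72 and 0.78 (limma adjusted p = 3.28e-07 and 3.69e-05). *Grik3* was the most abundant of the list per kb, with 2413 and 2326 normalized counts in control and 3756 and 4055 in *Dnmt1* KO libraries. *Grik2*, *Grik5*, *Grid1*, *Grm4* and *Grm7* were the others called higher, from 0.24 for *Grik5* to 0.68 for *Grid1*.

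Of 22 auxiliary subunit and assembly genes, 21 were tested, 8 were higher and 0 lower, and the median was 0.27. At an unadjusted limma p below 0.05, 3 were lower and 9 higher, and the share of all genes at that threshold is not given here. DESeq2 called 5 higher and edgeR 8, and both called 0 lower. *Neto1*, an auxiliary protein of kainate receptors that also binds NMDA receptors, went from 333 and 366 to 867 and 787 normalized counts. Its log2 fold change of 1.24 (SE 0.091, limma adjusted p = 2.81e-07) exceeded that of every member. The AMPA receptor auxiliary genes *Cacng2*, or stargazin, and *Cacng3* rose by 0.65 and 0.83 (limma adjusted p = 0.000646 and 0.00121). *Cacng4*, *Cacng7*, *Shisa7*, *Frrs1l* and *Neto2* were the other genes called. *Frrs1l* and *Neto2* lost their calls once length and GC dependence was subtracted. *Olfm1*, the most abundant of the list per kb, had 1766 and 1799 normalized counts in control and 1585 and 1654 in *Dnmt1* KO libraries and did not pass (log2 fold change -0.14, limma adjusted p = 0.12).

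Among 30 scaffold and trafficking genes, 29 were tested, 9 were higher and 1 lower (8 and 0 by DESeq2), and the median of 0.099 was the same as over all partner genes. *Dlgap2* and *Dlgap1*, which encode proteins that link the postsynaptic density to Shank scaffolds, rose by 0.88 and 0.64 (limma adjusted p = 1.98e-06 and 3.19e-06). *Grip1*, whose product binds the *Gria2* and *Gria3* subunits, went from 694 and 686 to 1132 and 1090 normalized counts (log2 fold change 0.69, limma adjusted p = 8.59e-06). *Dlgap4*, the highest per kb, changed by 0.24 (limma adjusted p = 0.00721). *Akap5*, *Grip2*, *Shank1*, *Shank2* and *Shank3* were also called higher. *Camk2a*, the kinase of mature excitatory synapses, fell from 410 and 398 to 324 and 283 normalized counts (log2 fold change -0.42, limma adjusted p = 0.0123), a call that DESeq2 did not make.

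In the list for handling of glutamate and co-agonists, 11 of 15 genes were tested, 0 were higher and 3 lower, with a median of -0.16. No gene of it had an unadjusted p below 0.05 for higher expression, and edgeR and DESeq2 called 0 higher. *Slc17a6*, the vesicular glutamate transporter of glutamatergic neurons, fell from 216 and 254 to 84.8 and 113 normalized counts (log2 fold change -1.25, SE 0.17, limma adjusted p = 9.37e-05). *Slc1a3*, a glutamate uptake gene of radial glia and astrocytes, fell by 0.80 on the log2 scale, and *Slc1a2* by 0.38 (limma adjusted p = 0.00169 and 0.00356). *Slc17a6* and *Slc1a3* belong to the excitatory and radial glia marker lists as well, whose sums were lower in the same libraries. *Glul*, the glutamine synthetase gene and the highest of the list per kb, had 681 and 667 in control and 698 and 626 in *Dnmt1* KO libraries, which overlap.

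None of the 6 genes for RNA editing and known transcriptional regulators was called by limma, edgeR or DESeq2, and 0 had an unadjusted p below 0.05. *Adar*, an RNA editing enzyme and the most abundant of them per kb, had 729 and 767 normalized counts in control and 785 and 817 in *Dnmt1* KO libraries (log2 fold change 0.099, limma adjusted p = 0.412). Editing of the *Gria2* transcript itself cannot be read from counts.

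**Figure D5:**
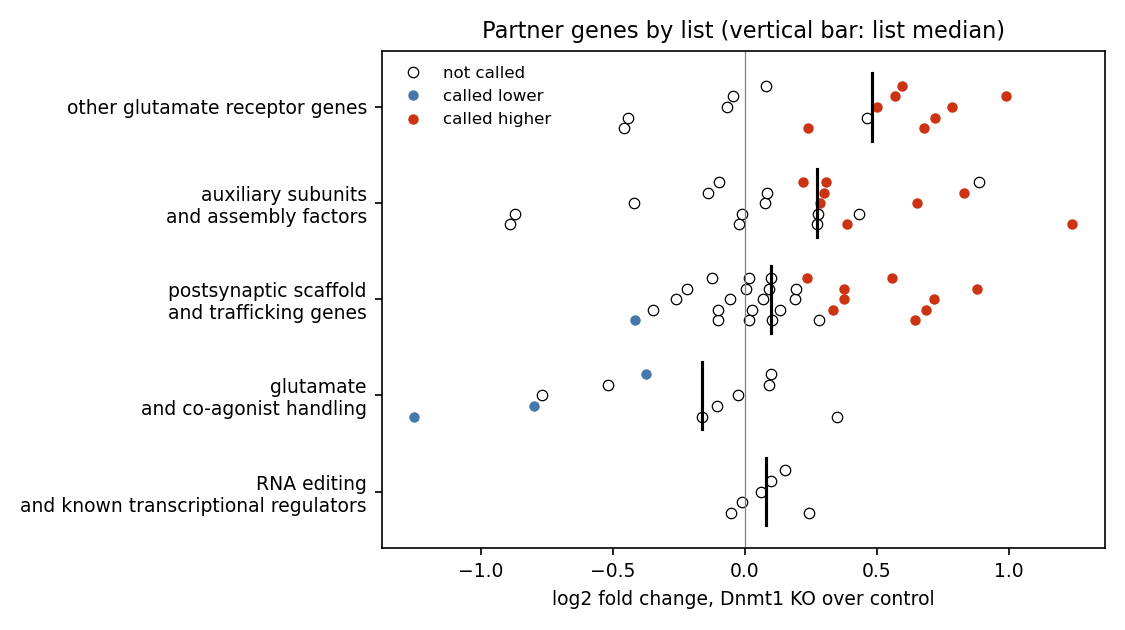
Log2 fold change, *Dnmt1* KO over control, of each partner gene tested in its list, filled red where called higher, blue where called lower and open where not called, with a vertical bar at the list median. Medians run from 0.48 for other glutamate receptor genes to -0.16 for glutamate and co-agonist handling.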

How the data were processed

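RNA of sorted tdTomato-positive cells was sequenced in 2 control and 2 *Dnmt1* KO libraries. Per the labels and the submitters' processing notes, the authors used Trim Galore for trimming, STAR for alignment to GRCm39, Salmon for quantification and DESeq2 1.32.0 for normalization. The signal the authors deposited is the normalized count, a whole read count divided by 1 size factor per library: all 89965 values above 0 (100%) came out whole to within 0.0001 of a read. Strand settings were not given in the sources used here. The labels give the libraries as separate replicates, and the authors describe each as cells of several embryos pooled. The limma p-values rest on the spread between these pools, moderated by a variance trend over all genes tested. With 2 libraries per genotype, the test of each member had 15.1 degrees of freedom, most of them from that moderation. DNA methylation and other data of the series were not analysed here.

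Genes with a mean of at least 10 normalized counts (14323 of 56883) were compared as log2(normalized count + 1) by limma 3.58.1 under R 4.3.3, with a prior variance trend, genotype as the only term and Benjamini-Hochberg adjustment over all genes tested, called below 0.05. Fold changes on this scale understate the change of low genes. Positions, lengths and GC content came from GENCODE on GRCm39 (14285 genes tested were matched, 38 were not), on the transcript with the longest coding sequence. Levels per kb divide the normalized count by its length. Shares and ratios were compared by exact permutation tests over libraries. Alternatives were a pseudocount of 0.5 or 10, a minimum mean of 1 or 50, TMM factors, quantile normalization, no variance trend, limma-voom, edgeR 4.0.16 (quasi-likelihood test) and DESeq2 1.42.0 (Wald test) on recovered reads, which called 1226 and 640 of all genes higher, a replicate block, length and GC trend removal with splines of 5 degrees of freedom, and each library left out. Trend removal, shares and ratios with coding length, and ratios with the longest transcript, were chosen after seeing the data. Steps were tested on simulated data. Tables and figures used Python 3.11.15, pandas 2.3.3, numpy 2.4.6, scipy 1.17.1 and matplotlib 3.10.9.

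Members, lists and the rule for naming genes were chosen with earlier results of these data known. Named were all members, *Dnmt1*, *Sst*, in each partner list up to 3 genes called with the smallest p in each direction, and the gene with the highest level per kb. Other called partner genes and the overlapping genes were named after their values were seen.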

Additional observations from a re-analysis of the deposited data

How the results depend on the processing

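*Grin2b*, *Grin3a*, *Gria1*, *Gria3* and *Gria4* were positive in all 17 alternatives run for each. Of those that kept all 4 libraries, limma without the variance trend was the only one in which they missed 0.05. In that setting limma called 0 members, 0 partner genes higher, 0 lower and 0 genes of all, at a smallest adjusted p of 0.0592, while 6 members, 31 partner genes and 3339 genes had an unadjusted p below 0.05. The cause was not tested. *Gria2* lay between 0.15 and 0.55, *Gria1* between 0.87 and 0.99, and *Gria4* between 0.87 and 0.94. The other settings with all 4 libraries called 6 members higher, or 7 with coding length and GC removed. In that last setting 1530 of all genes were higher and 899 lower, beside 1189 and 1287 in the values reported. DESeq2 called 640 higher and 687 lower among all genes. With each library left out in turn, 1 library stood for a genotype, so only log2 fold changes are given. *Gria1* ran from 0.89 to 0.96, *Gria2* from 0.44 to 0.55, *Gria3* from 0.58 to 0.75 and *Gria4* from 0.90 to 0.94. *Grin2b* ran from 0.54 to 0.61 and *Grin3a* from 0.80 to 1.02. *Grin2a*, never called, turned positive with quantile normalization (0.025), without control replicate 1 (0.080) and without *Dnmt1* KO replicate 2 (0.10), and ran from -0.18 to 0.10 with each library left out. *Grin2d* ran from 0.056 to 0.80 and was called in none. The *Gria2* share difference was -4.13 to -3.25 points with each library left out in turn, -5.24 without division by length and -5.27 with coding length. The *Grin2b* share difference ran from -0.42 (without control replicate 2) to 5.60. The labels number the replicates without saying whether same-numbered libraries were handled together. Over genes, the correlation of same-numbered deviations was -0.085, which does not settle how they were handled. With a replicate block limma called 6 members higher, 26 partner genes higher and 6 lower, and 1402 genes higher and 1555 lower among all. Depth limits *Grin2a* and *Grin2c*, with at most 38 and 4 reads, and 2 libraries per genotype limit every exact test. Counting error only is covered by the limit for a count of 0.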
